A study of Mus musculus with 50 samples.

Results

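Mammary gland tumors were ranked by their own RNA level of Igf1r, the gene of the insulin-like growth factor 1 receptor, and the 12 tumors with the highest level (Igf1r-high) were compared with the 12 with the lowest level (Igf1r-low), whatever treatment the mouse had received. These 24 tumors are part of 49 ranked tumors out of 50 in the series. The mice carried a mutant p53 allele and a Cre recombinase under the promoter of whey acidic protein, a milk protein of mammary epithelium (p53R270H/+WAPCre), were 8 weeks old at the start, and were injected under the skin every other day with vehicle, insulin, glargine, X10 or IGF1 until a tumor formed, with 10 tumors per treatment. Glargine is a long-acting insulin analogue in clinical use, and X10 is an insulin analogue known for its strong binding to receptors of this family. Genotype and injection schedule were therefore shared by both groups, and the treatments were mixed within them. A tumor was collected when it reached 1 cm3, 24 h after the last injection, and the authors had chosen tumors with an EMT-like (epithelial to mesenchymal transition) appearance and a latency close to the median of their treatment. Poly-A RNA was sequenced, and the values are RPKM, that is reads scaled to gene length and library size, with 1 library per tumor. Tumors are named as in the labels, where the vehicle tumors are called Untreated and 1 tumor of the IGF1 group is spelled IFG1_132. One insulin tumor (insulin_13) was left out before ranking because of its genes of secretory glands. The amylase gene Amy1, for example, reached 16196 RPKM in it and at most 73.5 RPKM in the other 49 tumors. Over all tested genes it was not the tumor least like the others, with a median Pearson correlation over log2 values of 0.918.

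The receptor encoded by Igf1r is a tyrosine kinase at the cell surface that binds IGF1 and IGF2 and, with lower affinity, insulin. Bound receptor recruits the adaptors IRS1, IRS2 and SHC, which pass the signal to the PI3K, AKT and mTOR kinases, to the FOXO transcription factors that AKT keeps out of the nucleus, and to the RAS and ERK kinases. IGF binding proteins hold the ligands outside the cell, and the receptor is known for its role in growth of the mammary gland and its tumors.

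Igf1r (ENSMUSG00000005533) lies on the plus strand of chromosome 7, between 67952827 and 68233668 in GRCm38. It had a mean RPKM of 9.64 ± 2.44 in the Igf1r-high tumors (SD, n = 12) and 3.95 ± 0.51 in the Igf1r-low tumors (SD, n = 12), a ratio of 2.44. The 25 tumors between the groups had 5.71 ± 0.66 (SD, n = 25). These values chose the groups and are a description only, without a test of the difference between the groups. The steps of the RPKM values imply that they were divided by a length of 4489 bases for Igf1r, shorter than the 16791 bases of all its annotated exons together. With the implied length the values correspond to 1346 to 2800 reads on Igf1r in an Igf1r-high tumor and to 431 to 891 reads in an Igf1r-low tumor, so that counting error was small beside the spread between tumors. The range was continuous rather than split: the lowest Igf1r-high tumor had 7.37 RPKM and the next tumor below it 6.71 RPKM, while the highest Igf1r-low tumor had 4.67 RPKM and the next tumor above it 4.73 RPKM. The highest tumor of all exceeded the lowest by 4.45-fold.

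The Igf1r-high tumors were 3 vehicle tumors with 14.4, 9.02 and 7.37 RPKM, 3 insulin tumors with 11.0, 9.08 and 7.60 RPKM, 3 glargine tumors with 12.1, 8.45 and 7.60 RPKM, 2 X10 tumors with 13.2 and 8.23 RPKM and 1 IGF1 tumor with 7.54 RPKM. The Igf1r-low tumors were 4 X10 tumors with 3.24, 3.86, 4.00 and 4.04 RPKM, 3 IGF1 tumors with 3.74, 4.00 and 4.63 RPKM, 3 vehicle tumors with 3.25, 4.099 and 4.67 RPKM and 2 glargine tumors with 3.31 and 4.54 RPKM. No insulin tumor was among the 12 lowest. All treatments except insulin thus had tumors in both groups, as shown in the plot of Igf1r by treatment.

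**Figure D1:**
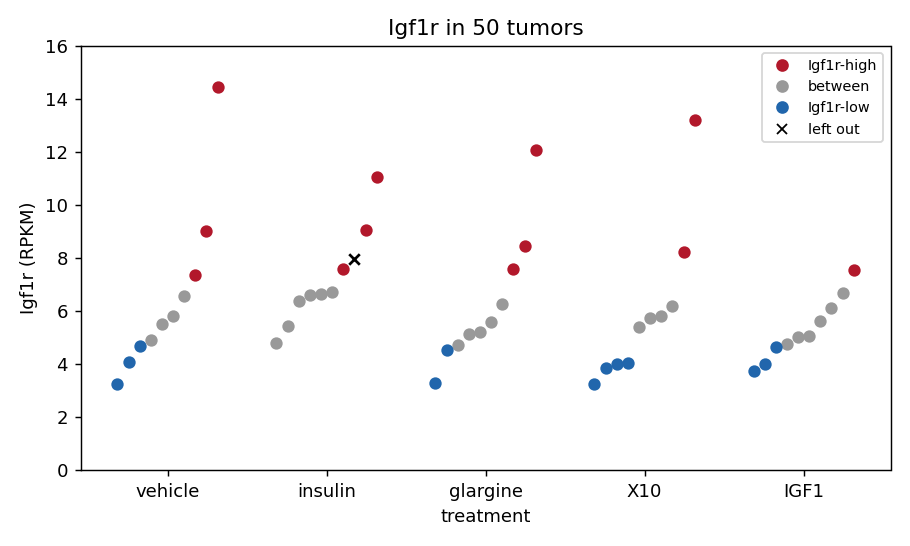
Igf1r in RPKM (vertical axis, starting at 0) for each of the 50 tumors, grouped by treatment and ordered by level within a treatment, with Igf1r-high tumors in red, Igf1r-low tumors in blue, the 25 tumors between in grey and the tumor left out as a cross. The vehicle group spans 3.25 to 14.4 RPKM and the insulin group has no Igf1r-low tumor.

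Library sizes, recovered from the steps of the RPKM values, overlapped and were 31.8 to 51.2 M reads in Igf1r-high and 29.6 to 49.4 M reads in Igf1r-low tumors. None of 7 library measures passed a two-sided permutation test after Benjamini-Hochberg adjustment, and the lowest unadjusted p was 0.111, for the epithelial keratin and junction score (adjusted p = 0.737). The tumors least like the others were X10_105, one of the tumors between the groups, and the Igf1r-high tumors Untreated_174 and Untreated_161, with a median Pearson correlation over log2 values of 0.852, 0.880 and 0.902. Of these, Untreated_174 had the highest epithelial score of the 24 tumors, 2.94, against -0.87 to 1.91 in the Igf1r-low tumors. Genes on the list of the mammary luminal lineage had a summed RPKM of 401 to 3488 in Igf1r-high and 295 to 1511 in Igf1r-low tumors. That list shares Cd14 with the macrophage list, so its sum is not one of luminal cells alone. The 6 epithelial genes that the study used for EMT summed to medians of 16.7 and 11.6 RPKM. Fibroblast and matrix genes summed to 6770 to 33288 and 5061 to 37352 RPKM.

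The question of the comparison is which genes differ along with Igf1r. More genes were lower in the Igf1r-high tumors than higher. Tested were 16732 genes whose RPKM averaged 0.5 or more, without Igf1r itself. In the Igf1r-high tumors 23 genes (0.137%) were higher and 138 (0.825%) were lower at an adjusted p under 0.05 (limma on log2(RPKM + 0.5), Benjamini-Hochberg over all genes tested), together 0.962% of the tested genes, and the median difference over all tested genes was -0.05 on the log2 scale. The size of the difference was between 0.28 and 2.897 on the log2 scale, with a median of 0.65, and 37 of these genes differed by at least 1. In none of them were the 2 groups free of overlap. The count depended on single tumors: it was 31 without the Igf1r-low tumor X10_113 and 293 without the Igf1r-high tumor Untreated_174, and 29 genes were called in each of the 24 fits that left out 1 tumor. Without Untreated_161 and Untreated_174 together, the count was 120, with 42 higher and 78 lower, of which 75 were also called with all 24 tumors. With treatment as a covariate 432 genes were called, among them 82.0% of the called genes above. With insulin_13 kept in the ranking, where it took the place of Untreated_174 among the 12 highest, the count was 598 and included 98.1% of them. With upper quartile scaling of the RPKM values 24 genes were higher and 55 lower, and with quantile normalization 31 were higher and 83 lower, so that higher genes made up a larger share of the calls than in the values as deposited. At an unadjusted p under 0.05, 17.8% of the tested genes differed, 4.91% higher and 12.9% lower.

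Among the higher genes Fat1 had the lowest adjusted p of the annotated protein-coding genes, and Lama5 the largest difference. Fat1 (ENSMUSG00000070047, chromosome 8 from 44935447 to 45052257, plus strand), an atypical cadherin, was between 8.21 and 24.2 RPKM with a median of 10.2 in Igf1r-high tumors and between 2.79 and 10.7 with a median of 3.97 in Igf1r-low tumors. Its 12 Igf1r-high values were all above the mean of the Igf1r-low tumors, and 4 were above the highest of them, a difference of 1.17 ± 0.20 on the log2 scale (SE, adjusted p = 0.0113). Lama5 (ENSMUSG00000015647, chromosome 2 from 180176373 to 180225859, minus strand), the alpha-5 chain of basement membrane laminins, lay between 36.1 and 616 RPKM with a median of 210 in Igf1r-high tumors and between 22.5 and 162.3 with a median of 50.1 in Igf1r-low tumors, 1.84 ± 0.40 on the log2 scale (SE, adjusted p = 0.0334). The groups overlapped for Lama5, with 7 Igf1r-high tumors above the highest Igf1r-low tumor, and the call was lost without Untreated_161 and Untreated_174 (1.51). Itpr3, an IP3 receptor that releases calcium from the endoplasmic reticulum, was between 12.7 and 43.5 RPKM with a median of 21.9 against 6.99 to 20.1 with a median of 9.47 (difference 0.96 ± 0.20, adjusted p = 0.0227). Abcc1, a multidrug export pump, was between 43.3 and 126 RPKM with a median of 68.4 against 26.1 to 55.2 with a median of 42.3 (difference 0.80 ± 0.18, adjusted p = 0.0357). For both, all 12 Igf1r-high tumors exceeded the Igf1r-low mean. The call was kept in 23 of the 24 fits without 1 tumor for Itpr3, in 16 for Lama5 and Abcc1 and in all 24 for Fat1.

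The remaining leading higher genes differed by 0.60 to 1.22 on the log2 scale. They were Gcc1, a coiled-coil protein of the trans-Golgi (0.60 ± 0.11, adjusted p = 0.0153), Tcp11l1 (1.22 ± 0.24, adjusted p = 0.0203), Gm340 (0.63 ± 0.13, adjusted p = 0.0273), Pde4d, a cAMP phosphodiesterase (1.00 ± 0.22, adjusted p = 0.0364), Tnfaip3, the ubiquitin-editing inhibitor of NF-kappaB known as A20 (0.72 ± 0.16, adjusted p = 0.0380), and Ahnak, a giant scaffold protein (0.78 ± 0.18, adjusted p = 0.0401). In Gcc1 and Gm340, 10 of the 12 Igf1r-high tumors exceeded the highest Igf1r-low tumor, which was the clearest separation among the leading higher genes. Gcc1 was between 11.5 and 20.7 RPKM with a median of 16.0 in Igf1r-high tumors and between 7.96 and 13.2 with a median of 9.98 in Igf1r-low tumors. Gm340 was a low gene, with medians of 2.17 and 1.23 RPKM. Gcc1 and Tcp11l1 were called in all 24 fits without 1 tumor, Gm340 in 23, Tnfaip3 in 14, Pde4d in 13 and Ahnak in 11. Of the 23 higher genes 19 were annotated as protein-coding and 3 as pseudogenes, whose reads may come from a near-identical parent gene.

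Uchl1 had the lowest adjusted p and the largest difference of all tested genes. Uchl1 (ENSMUSG00000029223, chromosome 5 from 66676091 to 66687234, plus strand), a deubiquitinating enzyme best known from neurons, was between 1.48 and 51.2 RPKM with a median of 5.65 in Igf1r-high tumors and between 16.5 and 142 with a median of 43.2 in Igf1r-low tumors. All Igf1r-high tumors except one lay below the lowest Igf1r-low tumor, that is 11 of 12, and the difference was -2.897 ± 0.42 on the log2 scale (SE, adjusted p = 0.00442), or 7.45-fold lower on the scale of RPKM + 0.5. Rbp2 (ENSMUSG00000032454, chromosome 9 from 98486115 to 98509781, plus strand), a cytosolic retinol-binding protein known from the intestine, was between 0.37 and 10.5 RPKM with a median of 3.32 against 7.29 to 27.1 with a median of 15.3 (difference -2.33 ± 0.39, adjusted p = 0.0113). For Rbp2, 10 of the 12 Igf1r-high tumors were below the lowest Igf1r-low tumor. Afp, alpha-fetoprotein of the fetal liver, was low in both groups, between 0.11 and 4.501 RPKM with a median of 0.60 against 1.496 to 10.8 with a median of 3.28 (difference -1.89 ± 0.35, adjusted p = 0.0153). Rbm15b (ENSMUSG00000074102, chromosome 9 from 106880918 to 106887428, minus strand), an RNA-binding protein of the complex that methylates adenosine in mRNA, was tightly distributed, between 9.21 and 12.9 RPKM with a median of 10.8 against 12.1 to 22.8 with a median of 16.8 (difference -0.62 ± 0.10, adjusted p = 0.0113). The Rbm15b symbol stands on a second row, under an identifier that is not in the annotation used here, and that row was not called (-0.30 ± 0.11, adjusted p = 0.139). Uchl1, Rbp2 and Rbm15b were called in all 24 fits without 1 tumor and in all 20 alternative settings.

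The other leading lower genes were Rundc3b (-1.11 ± 0.19, adjusted p = 0.0113), Fam174b (-0.84 ± 0.14, adjusted p = 0.0113), 1500009L16Rik (-1.32 ± 0.24, adjusted p = 0.0153), Mrpl20 of the mitochondrial ribosome (-0.61 ± 0.11, adjusted p = 0.0153), Arpc5l, a subunit of the actin-branching Arp2/3 complex (-0.49 ± 0.09, adjusted p = 0.0153), and the lymphocyte receptor Cd2, described below. Rundc3b, Fam174b and 1500009L16Rik were of low level, with medians of 0.32, 1.30 and 0.48 RPKM in Igf1r-high and 1.38, 2.73 and 2.46 RPKM in Igf1r-low tumors, where the added 0.5 makes the log2 difference smaller than the change in RPKM. Mrpl20 was between 50.0 and 96.6 RPKM with a median of 72.9 against 83.9 to 141 with a median of 107.02. Arpc5l was between 11.8 and 21.8 RPKM with a median of 16.5 against 18.0 to 24.9 with a median of 23.4. In Mrpl20 and Arpc5l alike, 10 of the 12 Igf1r-high tumors were below the lowest Igf1r-low tumor. Each of these lower genes was called in all 24 fits without 1 tumor.

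**Figure D2:**
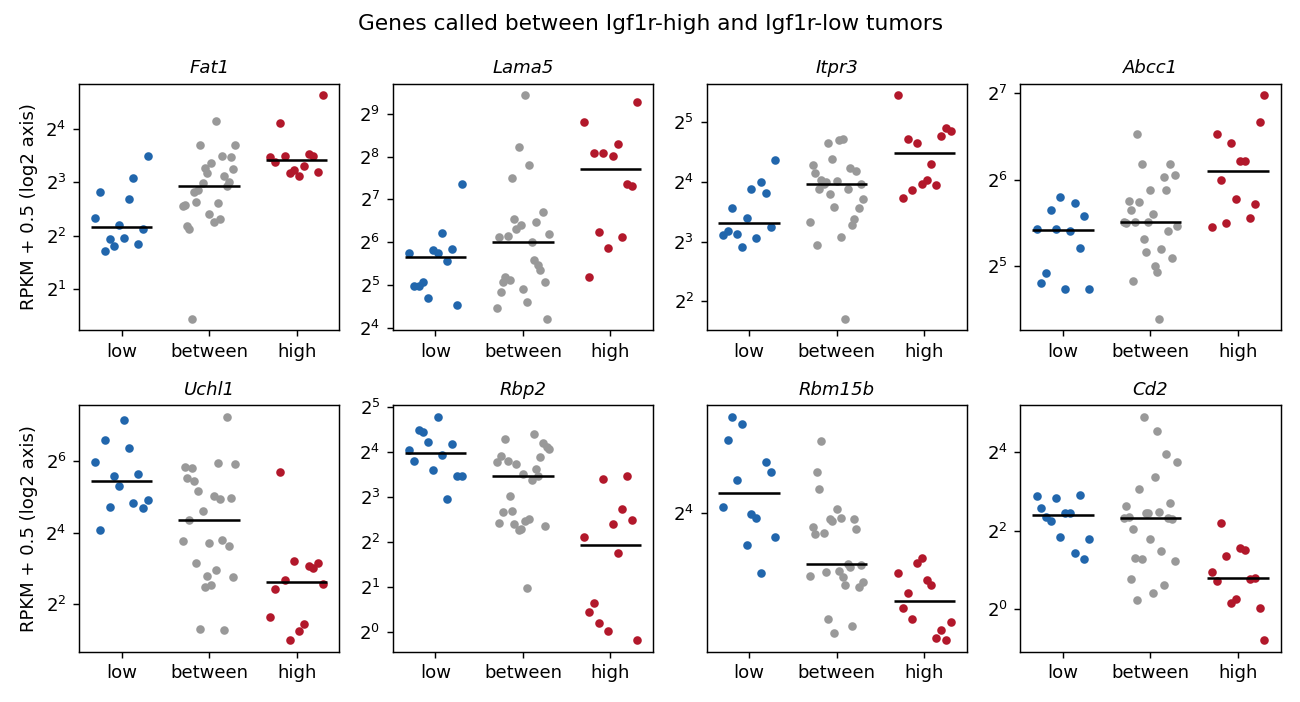
RPKM + 0.5 (vertical axes, log2 scale, one range per gene) of 4 genes higher and 4 genes lower in Igf1r-high tumors, with each point 1 tumor, ordered by Igf1r within a group, and black lines at group medians for the 12 Igf1r-low (blue), 25 between (grey) and 12 Igf1r-high (red) tumors. Uchl1 has medians of 43.2 RPKM in the Igf1r-low and 5.65 RPKM in the Igf1r-high tumors, and the groups overlap in each gene shown.

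Of 129 tested genes on 8 lists of the receptor's own pathway, 1 passed the test (0.775%, against 0.962% of all tested genes), a share no higher than the background and no result about the pathway. Of the 129, 47 had a negative difference (36.4%, against 58.3% of all tested genes). Of the 4 other tested receptors and ligands of the IGF system none passed the test (median difference 0.23, against -0.05 over all tested genes). Insr, the insulin receptor, was between 4.32 and 12.5 RPKM with a median of 9.61 in Igf1r-high tumors and between 5.18 and 12.2 with a median of 7.20 in Igf1r-low tumors (0.31 ± 0.15, adjusted p = 0.291), and it passed in 1 of 20 alternative settings, the fit over all 49 tumors on log2 Igf1r (adjusted p = 0.0458). Igf2r, the scavenging receptor for IGF2, differed by 0.27 ± 0.18 (adjusted p = 0.432) and Igf1 by 0.19 ± 0.37 (adjusted p = 0.832). Igf2 ranged from 0.46 to 3228 RPKM in Igf1r-high and from 0.36 to 4311 RPKM in Igf1r-low tumors (-0.12 ± 1.54, adjusted p = 0.98). None of 12 IGF binding proteins and their proteases passed (median 0.27). Igfbp5 had a median of 18.6 RPKM in Igf1r-high and 11.0 RPKM in Igf1r-low tumors and a highest value of 940 RPKM, and its difference was 0.95 ± 0.84 (adjusted p = 0.582). Igfbp2, Igfbp3, Igfbp4 and Igfbp7 differed by 0.09 to 0.18 and Igfbp6 by 0.73 ± 0.47 (adjusted p = 0.430).

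That gene was Socs1, a feedback inhibitor of cytokine and insulin signaling, on the list of 27 receptor adaptors and their regulators. It was between 3.20 and 9.18 RPKM with a median of 5.18 in Igf1r-high tumors and between 5.73 and 13.7 with a median of 7.80 in Igf1r-low tumors (-0.66 ± 0.15, adjusted p = 0.0397), and the call was lost without Untreated_161 and Untreated_174 (-0.68) and held in 11 of 24 fits without 1 tumor. The adaptor Irs2 was between 1.73 and 13.5 RPKM with a median of 5.19 against 0.71 to 6.87 with a median of 2.52, a difference of 0.81 ± 0.29 that did not pass (adjusted p = 0.141). Irs2 passed in 1 of 19 alternative settings, the fit over all 49 tumors on log2 Igf1r (adjusted p = 0.00558), and its slope in the 25 tumors between was 1.57 ± 0.66 (unadjusted p = 0.0253, adjusted p = 0.999). The adaptor Irs1 differed by -0.23 ± 0.23 (adjusted p = 0.634) and Grb10, an adaptor that restrains the receptor, by -0.23 ± 0.52 (adjusted p = 0.859). None of 17 PI3K and AKT genes, 20 mTOR genes, 15 FOXO factors and targets, 18 RAS and ERK kinases and 16 ERK feedback genes passed, and the medians of these lists were between 0.04 and 0.16. Akt1, Pik3r1 and Mtor differed by -0.02, 0.08 and 0.08, and Foxo1 and Foxo3 by 0.16 each, with adjusted p of 0.559 to 0.969. Of 29 other receptor tyrosine kinases none passed either. The largest difference among them was that of Pdgfra, a PDGF receptor of mesenchymal cells, with medians of 51.8 and 26.1 RPKM (0.91 ± 0.36, adjusted p = 0.177), and it passed in 1 of 19 alternative settings, with insulin_13 in place of Untreated_174 (adjusted p = 0.0326). Egfr differed by 0.28 ± 0.20 (adjusted p = 0.487), Met by -0.46 ± 0.63 (adjusted p = 0.751) and the estrogen receptor gene Esr1 by 0.33 ± 0.22 (adjusted p = 0.434).

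Genes of lymphocytes were among the lower genes. Of 16 tested markers of T, NK and B cells, 4 were lower, against 0.825% of all tested genes, and 14 had a negative difference, against 58.3% of all tested genes, with a list median of -0.80. Cd2 (ENSMUSG00000027863), an adhesion receptor of T and NK cells, was between 0.07 and 4.04 RPKM with a median of 1.21 in Igf1r-high tumors and between 1.90 and 6.97 with a median of 4.79 in Igf1r-low tumors (-1.46 ± 0.27, adjusted p = 0.0160). The T cell receptor subunits Cd3d (-0.93 ± 0.20, adjusted p = 0.0290) and Cd3g (-1.46 ± 0.34, adjusted p = 0.0397) and the T cell kinase Lck (-1.14 ± 0.28, adjusted p = 0.0471) were also lower, each below the Igf1r-low mean in all 12 Igf1r-high tumors. The B cell gene Ms4a1 differed by -0.23, and the cytotoxic genes Gzmb and Prf1 by 0.04 and 1.00, none of which passed. The summed RPKM of the list was 8.35 to 101 with a median of 42.3 in Igf1r-high and 31.9 to 117 with a median of 63.7 in Igf1r-low tumors, so the ranges overlapped, and no marker was at 0 in all 24 tumors. Without Untreated_161 and Untreated_174, 2 of the 16 markers were called. Over the fits without 1 tumor, Cd2 was called in 24, Cd3d in 19, Cd3g in 11 and Lck in 9. In bulk tumors fewer cells of a type and less RNA per cell cannot be told apart.

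Further immune genes were named after their values had been seen. Ccl5, a chemokine of T and NK cells, was between 2.95 and 29.2 RPKM with a median of 6.04 in Igf1r-high tumors and between 7.40 and 48.6 with a median of 28.0 in Igf1r-low tumors (-1.65 ± 0.32, adjusted p = 0.0180). Klrk1, the NK receptor NKG2D, was lower by 1.13 ± 0.24 on the log2 scale (adjusted p = 0.0333). Of 10 MHC class II genes, a list also chosen after values were seen, 3 were lower, against 0.825% of all tested genes, and all 10 had negative differences, against 58.3% of all tested genes (median -1.39). H2-Aa, a class II chain, was between 32.5 and 1434 RPKM with a median of 266 in Igf1r-high tumors and between 382 and 1487 with a median of 1050 in Igf1r-low tumors (-1.88 ± 0.47, adjusted p = 0.0493). Cd74, the invariant chain, missed the threshold narrowly (-1.76 ± 0.44, adjusted p = 0.0512), and the number of class II genes called was 0 to 7 over the fits without 1 tumor and 0 without Untreated_161 and Untreated_174. None of 14 macrophage markers passed (median -0.33, 11 negative), nor any of 20 interferon-stimulated genes, whose differences were all negative (median -0.69).

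Subunits of the proteasome, which degrades ubiquitin-tagged proteins, and of the respiratory chain were also among the lower genes. Of 37 proteasome subunits, a list chosen after values were seen, 7 were lower, against 0.825% of all tested genes, and 36 had a negative difference, against 58.3% of all tested genes (median -0.30). Psmb2 was between 84.8 and 146 RPKM with a median of 116.05 in Igf1r-high tumors and between 131.8 and 199 with a median of 169 in Igf1r-low tumors (-0.54 ± 0.10, adjusted p = 0.0167). Psma5 (-0.60 ± 0.12, adjusted p = 0.0180) and Psma4 (-0.58 ± 0.11, adjusted p = 0.0180) were called in all 24 fits without 1 tumor, as was Psmb2, and the whole list had 3 to 11 calls over these fits. The summed RPKM of the list was 3460 to 5046 with a median of 3951 in Igf1r-high and 4508 to 5633 with a median of 4937 in Igf1r-low tumors. Of 37 subunits of respiratory complex I, 3 were lower, against the same 0.825%. They were Ndufs4 (-0.46 ± 0.11, adjusted p = 0.0467), Ndufb6 (-0.38 ± 0.09, adjusted p = 0.0467) and Ndufa8 (-0.37 ± 0.09, adjusted p = 0.0463). A negative difference was found in 32 of the 37, against the same 58.3% (median -0.19). None of the 3 was called after quantile normalization or upper quartile scaling, and each was called in 6 or 7 of 24 fits without 1 tumor. Among lists chosen after values were seen, 2 of 16 nuclear-encoded cytochrome c oxidase subunits (Cox7a2 and Cox5a), 2 of 74 mitochondrial ribosomal proteins (Mrpl20 and Mrps22) and 1 of 21 spliceosomal Sm and Lsm proteins (Snrpe) were lower, again against 0.825% of all tested genes, and 1 or 2 genes of a list are few to read against that share. None of the 13 mitochondrially encoded genes passed (median 0.06), and none of the 79 cytosolic ribosomal proteins, of which 72 had a negative difference (median -0.12), against 58.3% of all tested genes.

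Of 18 mitosis genes 1 was called, against 0.825% of all tested genes called lower, which is no result about the list. It was Ccnb2, cyclin B2, between 13.1 and 35.1 RPKM with a median of 22.4 in Igf1r-high tumors and between 20.0 and 46.8 with a median of 35.4 in Igf1r-low tumors (-0.72 ± 0.17, adjusted p = 0.0401). All 18 differences were negative (median -0.40), against 58.3% over all tested genes, and the smallest was that of the proliferation marker Mki67 (-0.0011). The call on Ccnb2 was lost without Untreated_161 and Untreated_174 (-0.62), and it held in 9 of 24 fits without 1 tumor. None of 17 DNA replication genes passed (median -0.21).

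Epithelial genes were spread widely within both groups. None of 21 tested keratins and junction genes passed, although all 21 differences were positive (median 1.07, against -0.05 over all tested genes). Krt7 had the largest difference of the list, with 3.68 to 3810 RPKM and a median of 26.7 in Igf1r-high and 0.42 to 365 RPKM and a median of 4.53 in Igf1r-low tumors (2.56 ± 1.04, adjusted p = 0.194). The summed RPKM of the list was 115.6 to 12075 with a median of 526 in Igf1r-high and 83.2 to 2249 with a median of 313 in Igf1r-low tumors. Its median difference was 0.54 without Untreated_161 and Untreated_174, and with the epithelial score as a covariate 53 genes of the whole table were called, of which 45 were also called without it. Cdh1, E-cadherin, was between 2.46 and 106 RPKM with a median of 8.33 against 1.71 to 56.4 with a median of 7.62 (0.42 ± 0.52, adjusted p = 0.718). Vim, vimentin of mesenchymal cells, had medians of 4254 and 3975 RPKM, with ranges of 1094 to 6102 and 1397 to 5762 (-0.04 ± 0.23, adjusted p = 0.957). None of 6 epithelial genes (median 0.68) and 11 mesenchymal genes (median -0.03) of the EMT set passed. The paper took its EMT genes from Ingenuity Pathway Analysis and found the epithelial and mesenchymal groups by clustering these same tumors. The grouping is therefore no independent evidence of a direction.

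Lists of other cell types and states held no called gene. Hypoxia targets had 15 positive differences of 15 (median 0.52) and glycolysis genes 15 of 18 (median 0.29), while skeletal muscle genes had 14 negative of 14 (median -1.41), adipocyte genes 12 of 12 (median -0.42) and endothelial genes 13 of 15 (median -0.22). The summed RPKM of the muscle list ran from 9.03 to 2152 in Igf1r-high and from 8.00 to 2498 in Igf1r-low tumors, with medians of 29.5 and 136.3. Neutrophil markers (median 0.75), luminal mammary genes (0.54), basal and myoepithelial genes (0.28) and steroid and growth hormone receptors (0.27) had no called member either. The same held for TGF-beta and BMP genes (0.22), long nuclear RNAs (0.17), milk proteins (0.12), Schwann and nerve genes (0.11) and red blood cell genes (0.03). It also held for Wnt and Notch targets (0.00), p53 targets (-0.02), fibroblast and matrix genes (-0.08), pericyte and smooth muscle genes (-0.09) and known regulators of Igf1r (-0.14). The part that epithelial, immune or muscle content had in the called genes was not tested beyond the fit with the epithelial score.

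**Figure D3:**
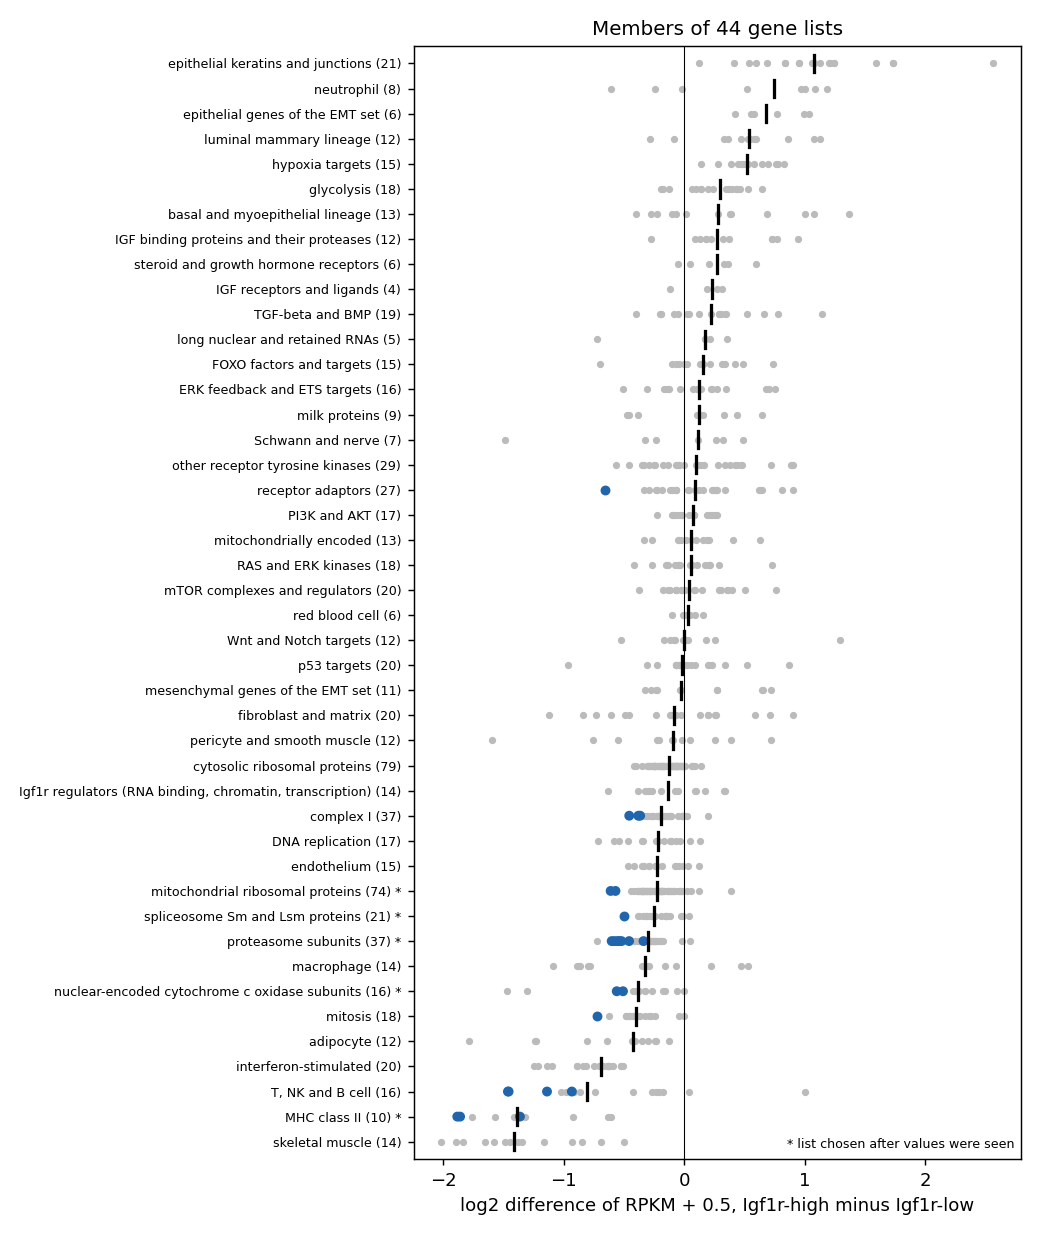
Log2 difference of RPKM + 0.5 between 12 Igf1r-high and 12 Igf1r-low tumors (horizontal axis) for every tested member of each gene list, with the number of tested members in parentheses, black bars at list medians, blue points for members called lower and grey points for members not called. The T, NK and B cell list has 4 lower genes and a median of -0.80, and the keratin and junction list has a median of 1.07 without a called gene.

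The 25 tumors between the groups were ranked by Igf1r with the others, and their own Igf1r level placed them between, but their values of the other genes did not enter the comparison above. In a limma fit of each gene on log2(Igf1r RPKM + 0.5) over these tumors, 0 of 16732 genes passed (0%), 472 had an unadjusted p under 0.05 (2.82%, of which 1.64% with a positive and 1.18% with a negative slope, in percent of all tested), and 6 other settings of the fit also gave 0 at unadjusted counts of 316 to 530. Without X10_105, a setting added after the data were seen, 0 passed and 493 had an unadjusted p under 0.05. The Igf1r values of these tumors spanned only 4.73 to 6.71 RPKM. Of the called genes, 106 (65.8%) had a slope of the same sign as their difference, 19 of the 23 higher and 87 of the 138 lower genes, and over all tested genes 50.4% had the same sign. Without X10_105 the number was 104. Of the called genes, 3 had an unadjusted p under 0.05, all with the same sign: Fat1 (slope 2.24 ± 0.83, unadjusted p = 0.0118), Ndufb6 (-0.65 ± 0.26, unadjusted p = 0.0202) and Cox7a2 (-0.996 ± 0.46, unadjusted p = 0.0414), and each had an adjusted p of 0.999. For Uchl1 the slope was -0.54 ± 1.97 and for Rbp2 1.03 ± 1.09, both smaller than their SE.

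Many of the lists named above did not keep their sign in these 25 tumors, where 9266 slopes of all tested genes were positive and 7466 negative. Of the 16 markers of T, NK and B cells 9 had a positive slope, among them Cd2 (1.28 ± 1.55), Cd3g (0.32 ± 1.67) and Lck (0.24 ± 1.60), while that of Cd3d was negative (-0.24 ± 1.43), each smaller than its SE. Slopes were positive in 16 of 18 mitosis genes, 15 of 17 DNA replication genes, 13 of 14 macrophage markers, 12 of 15 endothelial genes and all 12 adipocyte genes, lists in which 18, 15, 11, 13 and 12 of the differences between the groups were negative. All 10 MHC class II genes had positive slopes where all 10 differences between the groups were negative, and 18 of 21 keratins and junction genes and 14 of 15 hypoxia targets had negative slopes where all their differences were positive, as did 15 of 18 glycolysis genes where 15 differences were positive. In complex I, on the other hand, the sign was mostly that of the differences, with 34 of 37 slopes negative, as it was in the interferon-stimulated genes with 19 of 20 negative slopes, the mitochondrial ribosomal proteins with 65 of 74, the cytochrome c oxidase subunits with 13 of 16, the cytosolic ribosomal proteins with 61 of 79, the skeletal muscle genes with 11 of 14 and the proteasome subunits with 25 of 37. Without X10_105 the counts of these lists were the same, except that 8 of the 16 T, NK and B cell markers, 17 mitosis genes and 11 endothelial genes had positive slopes, and 20 of 21 keratins and junction genes, 26 of 37 proteasome subunits and 64 of 79 cytosolic ribosomal proteins had negative ones. None of these slopes passed the test, and genes of a list are not independent of each other.

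**Figure D4:**
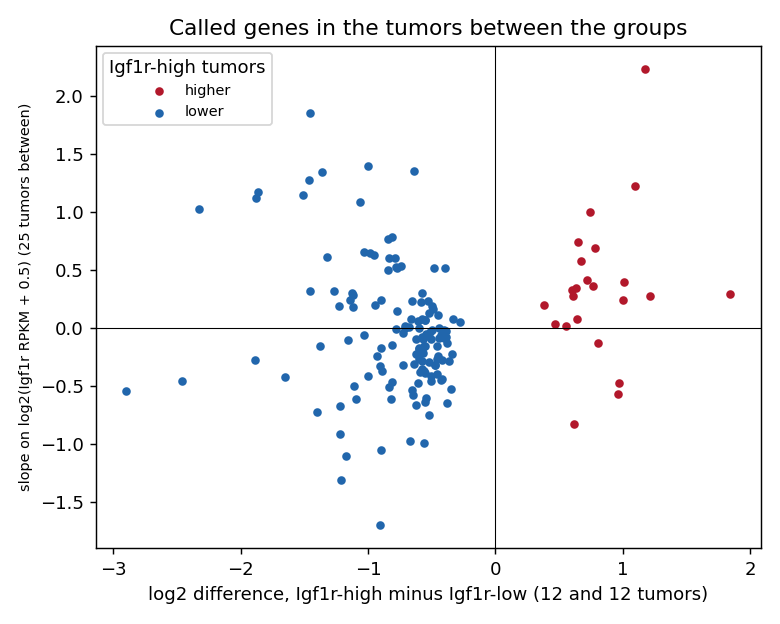
Slope on log2(Igf1r RPKM + 0.5) in the 25 tumors between the groups (vertical axis) against the log2 difference between Igf1r-high and Igf1r-low tumors (horizontal axis) for the called genes, with 23 higher genes in red and 138 lower genes in blue. Of the higher genes 19 lie above 0 on the vertical axis, and of the lower genes 87 lie below it.

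The difference was then taken within each treatment. Of 34 named called genes, the difference of group means had the overall direction in 34 within X10 (2 Igf1r-high and 4 Igf1r-low tumors), 34 within glargine (3 and 2), 34 within vehicle (3 and 3) and 33 within IGF1 (1 and 3), where Afp differed by 0.04 on the log2 scale. These genes had been called on the same tumors, so the counts describe how evenly the differences were spread and are no separate test. Uchl1 was lower by 4.202 within X10, 3.16 within glargine, 2.79 within vehicle and 2.48 within IGF1 on the log2 scale. Fat1 was higher by 1.62 within glargine, 1.28 within IGF1, 0.98 within X10 and 0.61 within vehicle. Igfbp5 did not follow such a pattern, with differences of 2.31 within IGF1, 2.23 within glargine, 0.07 within X10 and -2.26 within vehicle. Within insulin no value could be given because no insulin tumor was Igf1r-low.

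The neighbours of Igf1r on chromosome 7 were examined in turn. Of 17 tested genes whose start lies within 2 Mb of the start of Igf1r, none passed, with differences from -0.19 to 0.54 and a median of 0.07. Ttc23 (67647410 to 67762912) differed by 0.16 ± 0.11 (adjusted p = 0.471), Fam169b (68273839 to 68363092) by 0.25 ± 0.15 (adjusted p = 0.407), Lrrk1 by 0.40 ± 0.19 (adjusted p = 0.256) and Snrpa1 by -0.19 ± 0.13 (adjusted p = 0.455).

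The lower genes were unevenly placed in the genome, a pattern described after the values were seen. Of 873 tested genes on chromosome 9, 24 were lower (2.75%), of 1145 on chromosome 4, 22 (1.92%), and of 792 on chromosome 3, 15 (1.89%), against 0.825% of all tested genes, 1 of 811 on chromosome 8 and 0 of 618 on chromosome 15. The median difference of all tested genes was -0.21 on chromosome 9, -0.15 on chromosome 4 and -0.13 on chromosome 3. Relative to the other genes of the same tumor, the median level of 598 chromosome 9 genes whose RPKM averaged 5 or more lay between -0.41 and 0.19 (median -0.14) in Igf1r-high tumors, where it was below 0 in 9 of 12, and between -0.13 and 0.22 (median 0.03) in Igf1r-low tumors, where it was below 0 in 4 of 12. In the 25 tumors between, it was -0.32 to 0.31 and below 0 in 11. The groups overlapped, and 3 of 12 Igf1r-high tumors were at or above 0. The same level was less apart for chromosome 4, with medians of -0.05 in Igf1r-high tumors (below 0 in 6 of 12) and 0.05 in Igf1r-low tumors (3 of 12), and for chromosome 3, with medians of -0.07 (7 of 12) and 0.02 (4 of 12). DNA copy number was not measured in the data used here.

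The called genes also differed in length. The exon length of the 22 annotated higher genes had a median of 10662 bases, that of the 137 annotated lower genes 2683 bases and that of all annotated tested genes 3675 bases. The tested genes were ordered by length and divided into 10 bins of about equal size. The median difference was -0.03 in bins 1 and 2, the shortest, and -0.13 in bin 3 (1380 to 2178 bases). It was 0.06 in the bin of the longest genes (9176 bases and over), which held 12 of the higher and 3 of the lower genes. Bin 1 held 1 of the higher and 3 of the lower genes, and the medians did not rise steadily from the shortest bin. These lengths are those of all annotated exons of a gene together and need not be the length its RPKM values were divided by, and for Igf1r itself the annotated 16791 bases would fall in the longest bin but the implied 4489 bases would not. The mean z score of the genes in the longest bin was between -1.33 and 0.48 in Igf1r-high and between -1.001 and 0.25 in Igf1r-low tumors (permutation p = 0.463), and with this score as a covariate all of these genes were called among 785. The part of RNA integrity in this was not tested.

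**Figure D5:**
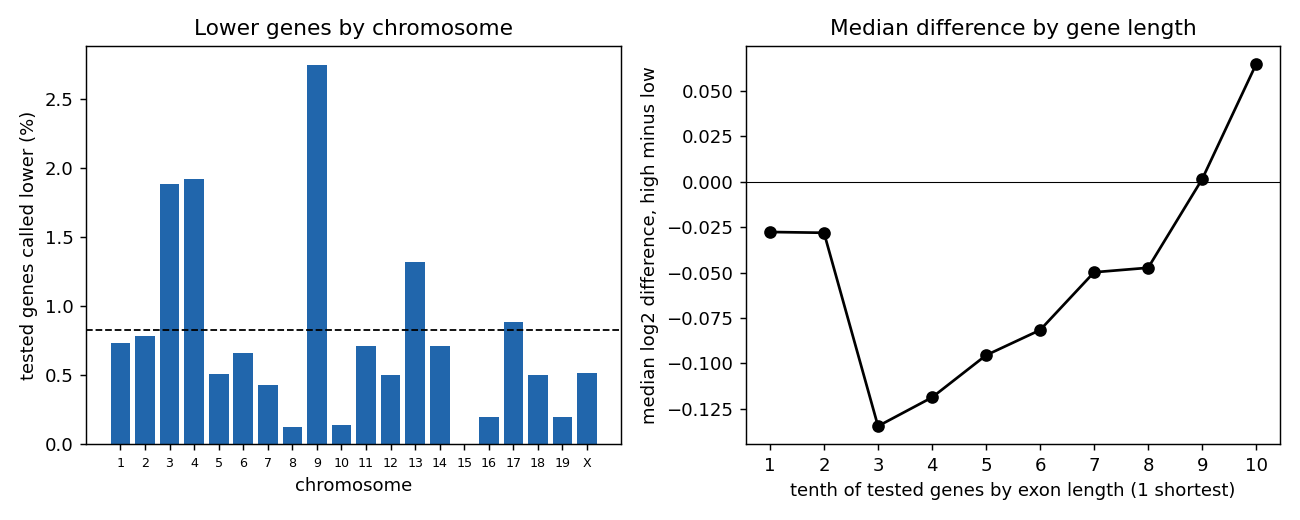
Left, share of tested genes called lower in Igf1r-high tumors (vertical axis, percent, starting at 0) by chromosome, with a dashed line at 0.825% for all tested genes. Right, median log2 difference between Igf1r-high and Igf1r-low tumors (vertical axis) for 10 bins of tested genes by exon length (horizontal axis). It is -0.03 in bins 1 and 2, -0.13 in bin 3 and 0.06 in the longest.

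The genes most like Igf1r over the 49 ranked tumors, by Spearman correlation and as a description that includes the 24 tumors above, were Fat1 (coefficient 0.70), Mical3 (0.65, under the identifier ENSMUSG00000003178, which is not in the annotation used here), Fam160a2 (0.65), Hipk2 (0.64) and Arhgef17 (0.64). Mical3, an actin-regulating monooxygenase, was between 2.16 and 6.88 RPKM in Igf1r-high and between 0.92 and 3.16 RPKM in Igf1r-low tumors (1.01 ± 0.19, adjusted p = 0.0153), and its symbol stands on a second row of the table that missed the threshold (adjusted p = 0.0525). Fam160a2 differed by 0.38 ± 0.09 (adjusted p = 0.0413). The kinase Hipk2 (1.11 ± 0.32, adjusted p = 0.0808) and the guanine nucleotide exchange factor Arhgef17 (0.47 ± 0.13, adjusted p = 0.0629) were not called between the groups, but passed in 6 of 20 and 4 of 19 alternative settings. The most opposite genes were Rbm15b (coefficient -0.73), Rps27l, a ribosomal protein paralog that p53 induces (-0.72), Psmb2 (-0.66), A430005L14Rik (-0.64) and Tma7 (-0.63), all of them called lower. Rps27l was between 81.6 and 153 RPKM in Igf1r-high and between 146 and 511 RPKM in Igf1r-low tumors (-0.82 ± 0.16, adjusted p = 0.0180), with 11 of 12 Igf1r-high tumors below the lowest Igf1r-low tumor. A430005L14Rik and Tma7 were lower by 0.55 ± 0.11 (adjusted p = 0.0273) and 0.54 ± 0.12 (adjusted p = 0.0369) on the log2 scale.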

How the data were processed

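RNA of 50 mammary gland tumors was measured by poly-A RNA-seq on the Ion Proton. The authors aligned reads to GRCm38 with TopHat2 2.0.10 and Bowtie2, counted them with HTSeq 0.6.1, used DESeq2 1.2.10 and deposited 1 table of RPKM values for 37701 genes. These values step in whole reads of a library scaled to 100 M reads, which gave library sizes of 26.5 to 51.9 M reads (median 40.9 M). At least 97.7% of the low values of genes with a recovered length were whole reads in each tumor. The library size was chosen to fit these low values best, and the share over all values was not computed. Groups were formed from Igf1r, so the members were chosen on a measured value, and members and gene lists were chosen with earlier results of these data known. Each library is 1 tumor and 1 replicate, the sources used here do not say whether any tumors shared a mouse, and the highest Pearson correlation between 2 tumors was 0.982.

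Genes whose RPKM averaged 0.5 or more over all 50 tumors were tested on log2(RPKM + 0.5) with limma 3.58.1 (moderated test with an intensity trend, R 4.3.3) and Benjamini-Hochberg adjustment. A gene was called at an adjusted p under 0.05, and differences are Igf1r-high minus Igf1r-low on that scale, which understates changes of low genes. Library measures were compared by two-sided permutation tests with 100000 resamples (scipy 1.17.1). Gene types and coordinates came from GENCODE M21 annotation of GRCm38, which held 16550 of the 16732 tested genes, and 17 symbols stand on 2 rows. Named were 26 genes of the IGF system and related receptors, the 10 protein-coding genes with the smallest adjusted p in each direction, up to 4 called members of each of 39 lists, the 5 genes with the highest and lowest Spearman correlation with Igf1r and genes within 2 Mb of it, of which some are not reported here. A further 5 lists, and the genes Krt7, Mki67, Ms4a1, Gzmb, Prf1, Ccl5, Klrk1 and those named from the further lists, were chosen after values were seen. The fitting steps were tested on simulated data, with each gene drawn independently from a normal distribution. Such data hold no correlation between genes and no tumor unlike the others, so they cannot show how the calls depend on single tumors. Counts were not used as the main values, and limma voom on recovered reads was an alternative.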

Additional observations from a re-analysis of the deposited data

Results flagged for a closer look

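The highest Igf1r values of 2 treatments lay far from the rest of their treatment by Dixon's 95% critical value, used as a flag only. The same values chose the Igf1r-high and Igf1r-low groups, so the flag is a description and no test of the comparison. In the X10 group the highest tumor had 13.203 RPKM, with a gap to the next tumor of 0.4996 of the whole range of the group, and in the vehicle group the highest tumor had 14.444 RPKM with a gap of 0.484 of the range. Both are Igf1r-high tumors. Chance flags about 1 in 20 such groups, and the highest and lowest tumor of 5 treatments were examined.

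The tumor left out before ranking, insulin_13, had 16195.6 RPKM of Amy1, 16576.9 of Smr3a, 680.21 of Pip, 684.246 of Lpo and 3931.12 of Dcpp1. In the other 49 tumors the highest values of these genes were 73.5, 95.2, 3.80, 2.67 and 22.7 RPKM. With 7.95 RPKM of Igf1r it would have been among the 12 highest.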

How the results depend on the processing

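The number of called genes, 23 higher and 138 lower, depended on the setting. It was 49 without a filter on low values, 79 with upper quartile scaling, 432 with treatment as a covariate, 364 with Igf1r centred within treatment, 598 with insulin_13 in place of Untreated_174 among the 12 highest, 716 for the 8 highest against the 8 lowest tumors, 1036 over all 49 tumors with log2 Igf1r as a continuous variable, 785, 508 and 53 with the long gene, ribosomal protein and epithelial score as a covariate, 100 with limma voom on recovered reads and, as a setting added after the data were seen, 258 over protein-coding genes only. The other settings gave 114 to 199. The causes were not tested. Leaving out 1 tumor gave 31 to 293 calls. The count moved over 1.5 times for 19 tumors, to 31 without X10_113, 71 without glargine_47, 48 without IGF1_128, 40 without X10_120, 89 without IFG1_132, 39 without X10_115, 268 without Untreated_194, 94 without glargine_53, 100 without IGF1_135, 247 without Untreated_182, 39 without Untreated_161, 42 without X10_100, 61 without glargine_63, 249 without insulin_14, 73 without Untreated_187, 97 without glargine_62, 67 without X10_116, 277 without glargine_69 and 293 without Untreated_174.

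Of 2796 refits of single named genes, 2438 kept direction and side of the threshold, 283 lost the call, 17 gained one and 58 changed sign, the last only for genes not called. With the epithelial score as a covariate the log2 differences were 0.0727 for Akt1, -0.2636 for Cdh1, 0.1941 for Grb10, 0.4016 for Igf2, -0.074 for Igfbp2, -0.0377 for Igfbp7 and 0.2228 for Vim. Without Untreated_161 and Untreated_174 they were 0.0188 for Akt1, 0.2435 for Grb10, -0.0913 for Igfbp2 and 0.1064 for Vim. Akt1 was 0.0124 after quantile normalization and 0.0301 after upper quartile scaling, where Vim was 0.0096. For 8 against 8 tumors Igfbp2 was -0.997, Igfbp7 -0.1321, Met 0.6588 and Vim 0.0431, and for 16 against 16 Igfbp4 was -0.0549. With Igf1r centred within treatment Igfbp2 was -0.1218 and Vim 0.0362. With treatment as a covariate Igfbp4 was -0.0035, Pik3r1 -0.1162 and Vim 0.0672. Pik3r1 was -0.0765 with the long gene score and -0.0989 with the ribosomal protein score. Vim was 0.0971 with insulin_13 in place of Untreated_174.

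Over the fits without 1 tumor the differences ran from -0.0654 to 0.0482 for Akt1, from -0.4141 to 0.0108 for Grb10, from -0.8303 to 0.617 for Igf2, from -0.4358 to 0.3525 for Igfbp2, from -0.0498 to 0.2158 for Igfbp7, from -0.0443 to 0.2223 for Pik3r1 and from -0.1701 to 0.1247 for Vim.

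Of the library measures, the difference in library size was -0.459867 M reads with insulin_13 in place of Untreated_174, and for 16 against 16 tumors the number of genes with a nonzero value differed by 26.625 and the mitochondrially encoded share by -0.0383115 percentage points. No paired analysis was possible because the tumor numbers in the labels are unique to each tumor.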
